A study of Homo sapiens with 18 samples.

Results

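Normoxic HepG2 cells, a hepatocellular carcinoma line, were compared with normoxic HKC-8 cells, a line of kidney proximal tubule epithelium, and with normoxic RCC4 cells, a clear cell kidney cancer line that stably carries wild-type VHL, the ubiquitin ligase component that marks HIF-α subunits for degradation. Polyadenylated RNA was sequenced from 3 samples labelled as replicates of each line, 9 of the 18 samples of the study, and all 3 lines were grown in the same medium with 10% serum. A gene was counted as a member when it was higher, or lower, in HepG2 than in each kidney line in separate comparisons, that is with an adjusted p-value under 0.05 from edgeR's quasi-likelihood test and a change of at least 2-fold. Of 23106 genes in the files, 14806 had enough reads to be tested, and 2437 of these (16.5%) were higher and 1610 (10.9%) lower in HepG2 than in both kidney lines. These shares are the backgrounds for the counts of each gene list below. Each line is a single established cell line, and no source used here states that the lines were cultured or sequenced together. The cell line and its batch therefore cannot be told apart. Whether the replicates were separate cultures from the start is not stated either, so the p-values measure only the spread between these samples. The results below are from tumour-derived or long-cultured cells and not from liver or kidney tissue.

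Hepatocytes make most of the proteins of blood plasma, assemble lipoproteins, synthesise bile acids and metabolise amino acids, sugars and drugs, and these functions depend on a small network of transcription factors that includes the HNF1, HNF4, FOXA and C/EBP families. Proximal tubule cells reabsorb filtered solutes through apical transporters and brush border enzymes, and the kidney arises from mesoderm under factors such as PAX2 and PAX8. Liver cells come from endoderm, and the HOX genes, which record position along the body axis, are expressed in many mesodermal derivatives. Cell lines keep such programmes to differing extents and can gain fetal or mesenchymal gene expression in culture.

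The libraries held 41511343 to 43957815 counted reads in HepG2, 81597396 to 84593123 in HKC-8 and 42045335 to 49594033 in RCC4. Levels are given below as counts per 1000000 reads (CPM) after TMM scaling, with the SD over 3 samples. TMM gives each library a scale factor that corrects its size for differences in composition. It assumes that most genes do not differ between libraries, which is uncertain here given the number of genes called. A level of 3 counts in a library, the floor used for genes with few or no reads, was 0.0334 to 0.0733 CPM, and this floor covers counting error only. The biological coefficient of variation was 0.0870 within HepG2, 0.137 within HKC-8 and 0.0428 within RCC4, so HKC-8 was the most variable line. Because the assay measured RNA from whole cultures, fewer cells that express a gene and less RNA per cell cannot be told apart.

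In the separate comparisons, 3889 genes (26.3%) were higher and 3062 (20.7%) lower in HepG2 than in HKC-8, and 4150 (28%) were higher and 3183 (21.5%) lower than in RCC4. The kidney lines themselves differed at 6777 genes (45.8%) by the same thresholds. A further 705 genes (4.76%) were called on opposite sides, of which 363 were higher than in HKC-8 but lower than in RCC4 and 342 the reverse, and 5274 genes were called in neither comparison. Of the genes called the same way in both comparisons, 4014 had no overlap between the 3 HepG2 samples and the 6 kidney samples. These genes had already passed the thresholds on the same 9 samples, so the count describes them and adds no support. The share without overlap over all tested genes is not given here. The smaller of the 2 folds of a gene had a median of 6.82 among the higher genes and 5.24 among the lower genes, reached 10-fold in 1010 and 581 genes, and reached 100-fold in 331 and 135 genes. Both comparisons used the same HepG2 samples, so their overlap was not tested. The median over all tested genes was 0.02 on the log2 scale against HKC-8 and 0.11 against RCC4.

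Among genes with at least 10 CPM in every HepG2 sample and no overlap, those with the largest smaller fold were ALB, APOB, AFP, A2M, APOA2, GPC3, LYZ, TF, AHSG, AKR1C1, APOA1 and FGG. ALB encodes albumin, the main carrier protein of plasma, and lies on the plus strand of chromosome 4 at 74262831 to 74287199 in GRCh37. It was at 11493, 11588 and 9895 CPM in the HepG2 samples, with 2, 1 and 0 counts in the HKC-8 libraries and no count in RCC4, so that HepG2 was at least 171209-fold higher than RCC4. APOB, the scaffold protein of very low density lipoprotein, was at 10135, 9329 and 11334 CPM in HepG2, with 5, 2 and 1 counts in HKC-8 and none in RCC4. AFP, the fetal counterpart of albumin, on the same strand of chromosome 4 (74296855 to 74321891), was at 6913, 7829 and 6872 CPM in HepG2 and had at most 10 counts in any kidney library. ALB, APOB and AFP were read at or near the floor in the kidney lines, so their ratios rest on few or no counts. A ratio is set by the floor only where a group mean is under it, as in RCC4 for these genes. In HKC-8, AFP had 10, 1 and 5 counts and A2M had 5, 3 and 7, so their group means there were above the floor.

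The stretch of 250 bases before the RefSeq start of 4 of these genes is shown because these promoters hold the letters of a liver factor's motif. Of the 12 highest genes, 7 had an entry in the RefSeq promoter table used here, and 4 of those held a motif searched for HNF1, HNF4, FOXA or C/EBP. Capitals mark GTTAATNAT (HNF1), CAAAGTCCA (HNF4), TGTTTAC (FOXA) or TATAAA (the so-called TATA box), each searched on both strands, so a match on the other strand appears as its reverse complement. The sequences run 5′ to 3′ along the gene in GRCh38.p14: ALB is at chr4:73404037-73404286 on the plus strand, AFP at chr4:73435971-73436220 on the plus strand, APOA2 at chr1:161223629-161223878 on the minus strand and AHSG at chr3:186612810-186613059 on the plus strand.
ALB: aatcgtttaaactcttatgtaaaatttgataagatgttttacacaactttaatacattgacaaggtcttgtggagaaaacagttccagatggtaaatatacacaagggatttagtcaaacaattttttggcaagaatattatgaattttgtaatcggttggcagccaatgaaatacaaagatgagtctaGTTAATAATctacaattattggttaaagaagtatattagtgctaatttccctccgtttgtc
AFP: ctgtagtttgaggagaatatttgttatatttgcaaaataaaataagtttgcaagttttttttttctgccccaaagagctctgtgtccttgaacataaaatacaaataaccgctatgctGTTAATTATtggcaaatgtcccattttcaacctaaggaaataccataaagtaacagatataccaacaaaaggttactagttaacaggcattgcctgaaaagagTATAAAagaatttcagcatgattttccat
APOA2: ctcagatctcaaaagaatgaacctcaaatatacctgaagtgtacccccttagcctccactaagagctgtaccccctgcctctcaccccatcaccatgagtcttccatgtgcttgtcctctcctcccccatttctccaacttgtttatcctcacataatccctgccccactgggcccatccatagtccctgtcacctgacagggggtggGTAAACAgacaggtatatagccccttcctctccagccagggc
AHSG: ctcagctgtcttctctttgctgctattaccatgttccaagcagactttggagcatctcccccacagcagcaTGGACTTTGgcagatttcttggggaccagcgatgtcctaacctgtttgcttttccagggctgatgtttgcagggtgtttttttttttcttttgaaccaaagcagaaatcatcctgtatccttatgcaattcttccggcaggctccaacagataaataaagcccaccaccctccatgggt
The HNF1 letters began 61 bases before the start of ALB and 132 bases before that of AFP, the FOXA letters 42 bases before that of APOA2, and the HNF4 letters 179 bases before that of AHSG, while the TATA letters of AFP began 29 bases before its start. Over all 27305 promoters of the same length in the table, 0.678% held the HNF1 letters, 0.293% the HNF4 letters, 2.98% the FOXA letters and 11.1% the TATA letters, none of which overlap one another in the sequences shown. In the same 250 bases, 4.16% of promoters held TGACTCA (AP-1) and 2.95% held GGAATGT (TEAD). Among the 12 lowest genes, 8 had an entry and 2 held either in that stretch: HTATIP2 with TEAD and ME1 with AP-1. With 50 bases after the start added, the shares over all promoters were 4.92% for AP-1 and 3.48% for TEAD. A match describes the letters and is not evidence of binding.

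**Figure D1:**
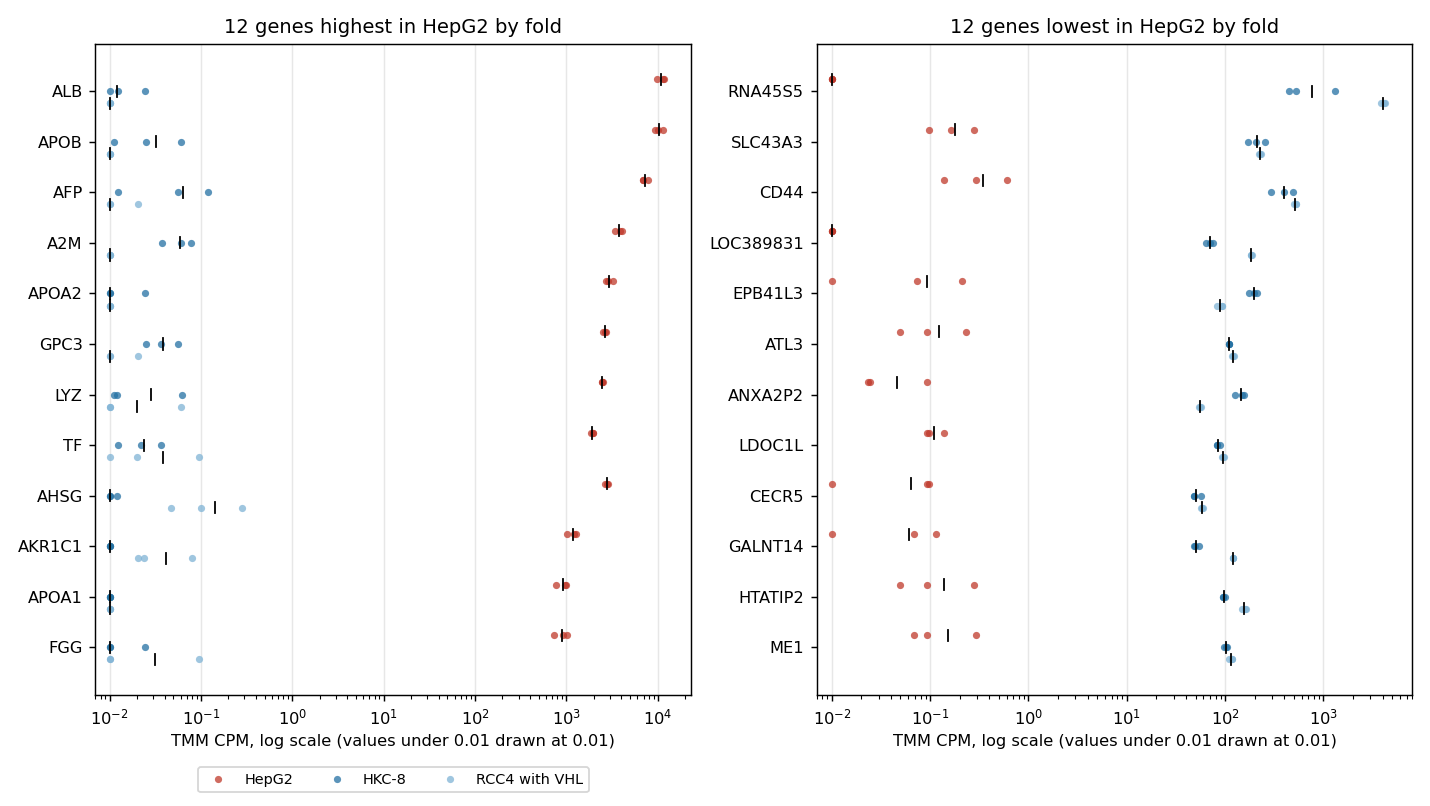
TMM-scaled CPM (log axis, values under 0.01 drawn at 0.01) of the 12 genes highest and the 12 genes lowest in HepG2, with 1 point for each of the 9 samples and a black tick for each group mean. The HepG2 points lie apart from the 6 kidney points for each of the 24 genes, with ALB at 9895 to 11588 CPM in HepG2 and CD44 at 289 to 529 CPM in the kidney lines.

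The proteins that the liver secretes into plasma took a measurable part of the HepG2 libraries. The 95 listed carrier, acute phase, apolipoprotein, coagulation and complement genes held 5.58% ± 0.177 (SD, n = 3) of HepG2 reads, against 0.0345% in HKC-8 and 0.0904% in RCC4. The 10 genes with the most reads in HepG2 were EEF1A1, FN1, ALB, APOB, FTL, AFP, SERPINA1, A2M, HSP90AB1 and ACTG1, and they held 8.14% ± 0.0999 of its reads, against 2.77% ± 0.232 in HKC-8 and 2.11% ± 0.0480 in RCC4. EEF1A1, a translation elongation factor, took 1.66%, FN1, which encodes fibronectin, 1.19%, ALB 1.08% and APOB 1.01%. Levels of different genes need a correction for length. The length used here joins all annotated exons of a gene and can exceed that of the transcripts read, so the order of genes on this scale is approximate. Per kilobase of annotated exon, FTL, the light chain of ferritin, stood at 10461 CPM, ALB at 3204, APOA2 at 3102, AFP at 2251, EEF1A1 at 1677 and APOB at 692. FTL was thus above the other named genes on that scale, and it was 9111 ± 280 CPM in HepG2, 751 ± 96.2 in HKC-8 and 2307 ± 42.2 in RCC4 before division by length. HSP90AB1 and ACTG1, a chaperone and a cytoskeletal actin, did not pass the thresholds in either comparison (ACTG1 at 3504 ± 119, 3685 ± 948 and 3329 ± 37.1 CPM).

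Of 28 carrier and acute phase genes, 25 were tested and all 25 were higher in HepG2 than in both lines, where the background was 16.5% of tested genes. The median change over the tested genes was 13.99 against HKC-8 and 12.62 against RCC4 on the log2 scale, or 12.19 and 10.67 when groups under the floor were set to it. SERPINA1, the inhibitor of neutrophil elastase, was at 5418, 5010 and 4788 CPM in HepG2, at 0.0726 to 0.274 CPM in HKC-8 and at 9.60 to 10.6 CPM in RCC4. These levels did not overlap and gave log2 differences of 14.81 ± 0.25 (SE) and 8.95 ± 0.09. TTR, which carries thyroxine and retinol-binding protein, was at 219 ± 21.4 CPM in HepG2 and had no count in any kidney library. RBP4, its retinol-carrying partner, was at 482 ± 32.9 CPM and likewise had no count in RCC4. CP, the copper oxidase ceruloplasmin, had the smallest ratio to RCC4 of those named here, at 104 ± 15.7 CPM against 25.6 ± 1.83 (log2 difference 2.02 ± 0.10). The genes GC, APCS and CRP had too few reads to be tested. A member that is high in HepG2 alone passes the filter on low counts through HepG2, so these counts over tested genes describe the list and do not test it.

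Among 20 genes of apolipoproteins and lipoprotein handling, 18 were tested and 16 were higher in HepG2 than in both lines, with none lower. APOE, a ligand of lipoprotein receptors, was at 512 ± 37.3 CPM in HepG2, 0.116 ± 0.0572 in HKC-8 and 0.00791 ± 0.0137 in RCC4. APOH was at 1707 ± 130 CPM and APOC3 at 30.7 ± 6.2 CPM in HepG2, and APOC3 had no count in the kidney lines. MTTP, which loads lipid onto APOB, was at 76.7 ± 10.8 CPM against 0.0260 in HKC-8 and 0 in RCC4. LIPC, which encodes hepatic lipase, was not particular to HepG2: it stood at 25.6 ± 1.74 CPM in HepG2, 0.141 ± 0.0339 in HKC-8 and 36.9 ± 1.66 in RCC4. LIPC is named here after its values were seen.

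Of 27 coagulation genes, 24 were tested, 19 were higher and 2 lower in HepG2 than in both lines. The 3 fibrinogen chains FGA, FGB and FGG, which form the clot, were at 584 ± 81.7, 219.6 ± 34.4 and 893 ± 139 CPM in HepG2, with at most 22 counts in any kidney library. F2, prothrombin, was at 335 ± 5.65 CPM in HepG2, 0.0240 ± 0.0211 in HKC-8 and 3.12 ± 0.392 in RCC4. F5, a cofactor in the activation of prothrombin, was at 211 ± 23.5 CPM and had 1 count in HKC-8 and none in RCC4. The members that were lower were F3, or tissue factor, the cell-surface starter of coagulation, and F8. F3 was at 7.23, 10.2 and 9.45 CPM in HepG2, at 60.5, 94.4 and 35.2 CPM in HKC-8 and at 31.9 to 32.7 CPM in RCC4, with no overlap (log2 differences -2.82 ± 0.29 and -1.85 ± 0.11). F8 was low in all lines (0.395 ± 0.241, 1.00 ± 0.231 and 2.74 ± 0.406 CPM), and its difference from HKC-8 was under 2-fold, at -0.92, without HepG2 replicate 3.

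Complement genes followed in the same direction at 14 of 17 tested members, with none lower than in both lines. C3, the central component, was at 1879, 1671 and 1707 CPM in HepG2, 12.4 to 16.6 CPM in HKC-8 and 247 to 290 CPM in RCC4 (log2 differences 6.92 ± 0.14 and 2.68 ± 0.08). C5, cleaved at the next step, was at 248 ± 18.2 CPM in HepG2, 0.789 ± 0.347 in HKC-8 and 7.35 ± 0.564 in RCC4. The inhibitor CFI, which degrades active C3 fragments, was at 229 ± 21.8, 0.158 ± 0.116 and 50.5 ± 1.46 CPM. C4A and C4B had no count in any of the 9 samples, and CFB and C2 lie in the window of chromosome 6 described near the end, outside which 12 of 15 tested complement genes were higher.

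**Figure D2:**
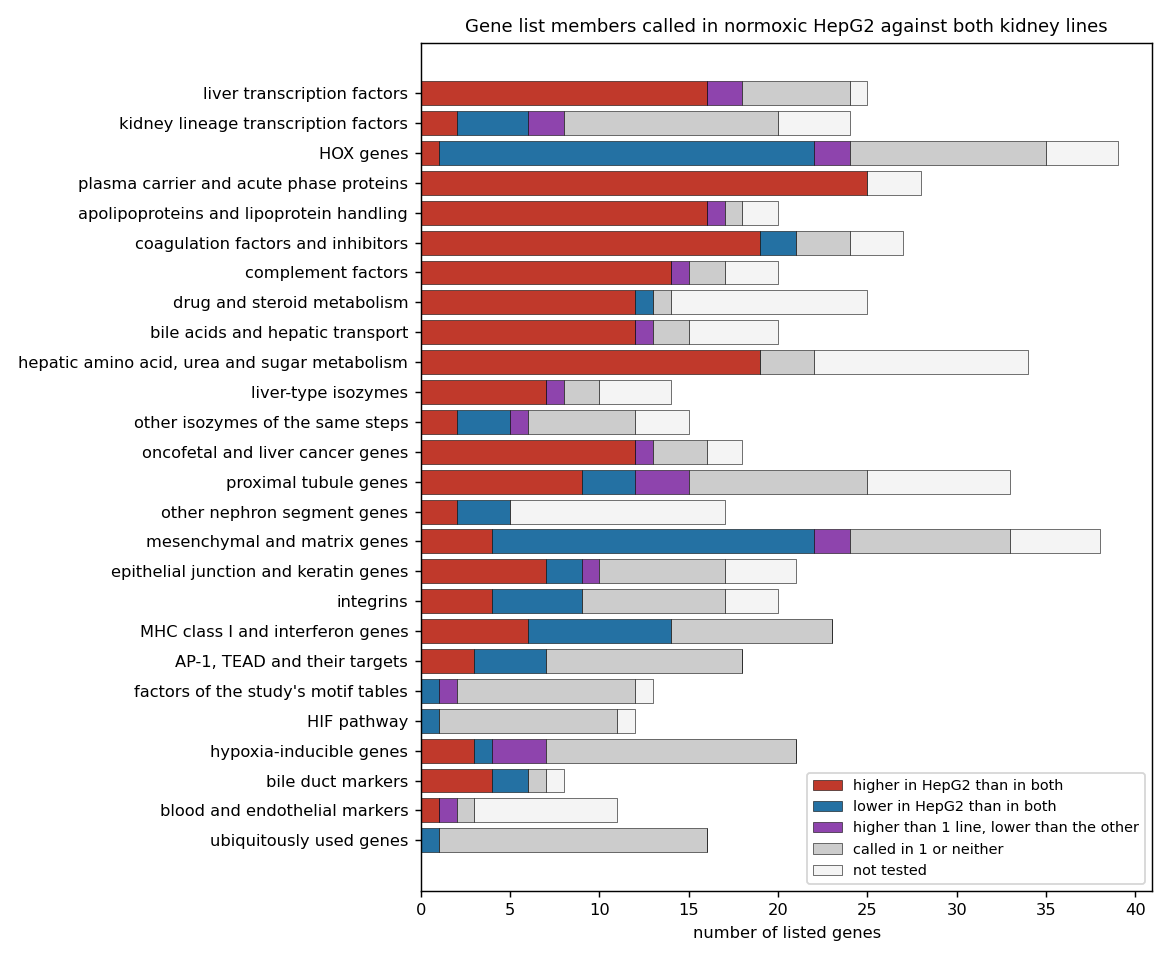
For each of the gene lists, the number of members higher in HepG2 than in both kidney lines, lower than in both, called on opposite sides, called in 1 comparison or neither, or not tested (x axis, number of genes). All 25 tested carrier and acute phase genes were higher, whereas 21 of 35 tested HOX genes and 18 of 33 tested mesenchymal and matrix genes were lower.

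The transcription factors known for liver identity were higher in HepG2 at 16 of 24 tested members, and none was lower than in both lines. The median log2 difference over the tested factors was 6.49 against HKC-8 and 4.99 against RCC4, or 5.53 and 4.56 with the floor. HNF4A, a nuclear receptor (chromosome 20, 42984339 to 43061485, plus strand), was at 239, 224 and 237 CPM in HepG2, with 1, 4 and 0 counts in HKC-8 and 1, 5 and 4 counts in RCC4. Its log2 differences were 13.39 ± 0.23 and 11.63 ± 0.14. CEBPA, a leucine zipper factor of differentiated hepatocytes, was at 109 ± 6.14 CPM against 0.456 ± 0.115 and 4.54 ± 0.194.

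The 3 FOXA genes, whose proteins open chromatin at liver enhancers, differed between the kidney lines. FOXA1 was at 111, 104 and 105 CPM in HepG2, 2.13, 1.54 and 2.61 CPM in HKC-8 and at 0 in RCC4. FOXA2 was at 34.3, 30.0 and 30.0 CPM in HepG2, had 1, 3 and 0 counts in HKC-8 and was at 1.73 to 2.06 CPM in RCC4. FOXA3 was at 38.0 ± 2.67 CPM in HepG2 and had 1 count over all 6 kidney libraries. Thus HepG2 was higher for each, but the trace of FOXA1 was in HKC-8 and that of FOXA2 in RCC4. PROX1, needed for hepatocyte migration in the embryo, was at 129 ± 14.1 CPM with at most 6 counts in a kidney library. NR0B2, the repressor that feeds back on bile acid synthesis, was at 103 ± 1.91 CPM with at most 6 counts. GATA4, an endoderm factor, was at 47.4 ± 1.39 CPM with 1 count in each HKC-8 library and none in RCC4.

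Other factors of the list separated HepG2 from 1 kidney line more than from the other. TBX3 was at 129 ± 4.89 CPM in HepG2 and 16.7 ± 1.62 in HKC-8, with no count in RCC4. HHEX, an early marker of the liver bud, was at 56.6 ± 3.82, 7.37 ± 1.07 and 1.24 ± 0.312 CPM. ONECUT2 was close to the threshold, with 29.6 ± 3.61, 11.9 ± 1.19 and 14.8 ± 1.31 CPM. The next 3 factors are named after their values were seen. HNF4G, a relative of HNF4A, was at 14.3, 11.3 and 16.1 CPM in HepG2, had 1 count in each HKC-8 library and was at 27.3 to 29.4 CPM in RCC4. CEBPD was at 5.72 ± 0.930, 0.838 ± 0.228 and 26.9 ± 1.80 CPM, and so also lay between the kidney lines. NR1H4, the bile acid receptor, was at 41.5 ± 4.20 CPM in HepG2 and at 26.1 ± 1.45 CPM in RCC4, a log2 difference of 0.67 ± 0.08, against 0.256 ± 0.130 CPM in HKC-8.

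Enzymes of hepatic amino acid, urea and sugar metabolism were higher in HepG2 at 19 of 22 tested members of a list of 34, with none lower. HPD and HGD, which act in tyrosine breakdown, were at 232 ± 7.13 and 135 ± 8.93 CPM in HepG2. HPD stood at 4.64, 5.53 and 13.4 CPM in HKC-8 and 0.0629 ± 0.0719 in RCC4, whereas HGD had no count in HKC-8 and was at 49.5 ± 1.25 CPM in RCC4, so neighbouring steps of the pathway had different second lines. CPS1, the entry enzyme of the urea cycle and named after its values were seen, was at 58.3 ± 4.70, 8.16 ± 2.23 and 17.7 ± 1.07 CPM. The 12 untested members included OTC, ARG1, PCK1 and TDO2, which are abundant in liver tissue.

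Of 20 genes of bile acid synthesis and transport, 15 were tested and 12 were higher in HepG2 than in both lines. ABCC2, an exporter of conjugates into bile, was at 416, 505 and 489 CPM in HepG2, 1.68 ± 0.30 in HKC-8 and 79.0 ± 1.73 in RCC4. CYP27A1, a sterol hydroxylase, was at 193 ± 8.88, 0.0830 ± 0.0237 and 54.0 ± 1.95 CPM. FGFR4 and its co-receptor KLB, which receive the intestinal signal that restrains bile acid synthesis, were at 363 ± 22.4 and 164 ± 9.19 CPM in HepG2. FGFR4 was also read in HKC-8 (21.1 ± 5.50 CPM) and RCC4 (69.3 ± 1.57 CPM), while KLB was at 0.422 ± 0.169 and 0.0947 ± 0.0513 CPM. CYP7A1, the rate-limiting enzyme of bile acid synthesis, and SLC10A1, the bile acid importer of hepatocytes, were at 0.0708 ± 0.0696 and 0.102 ± 0.0339 CPM in HepG2 and were not tested. BAAT, which conjugates bile acids, was called on opposite sides (6.96 ± 0.755 CPM in HepG2, 0.284 ± 0.110 in HKC-8 and 25.9 ± 1.60 in RCC4).

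Drug and steroid metabolism was represented in part: of 25 genes, 14 had enough reads to be tested, 12 were higher and 1 was lower. SULT2A1, a steroid sulfotransferase, was at 165, 138 and 122 CPM in HepG2 with no count in the kidney lines. The fetal cytochrome CYP3A7 was at 14.7 ± 2.21 CPM and CYP3A5 at 12.6 ± 0.797 CPM, while the adult form CYP3A4 was at 0.636 ± 0.172 CPM. CYP1A1 was at 20.2 ± 2.75 CPM in HepG2, 0.290, 0.299 and 1.85 CPM in HKC-8 and at 0 in RCC4. HSD17B6 was the lower member, at 0.322 ± 0.0204, 1.79 ± 0.312 and 0.690 ± 0.135 CPM, and its difference from RCC4 was under 2-fold, at -0.95, without RCC4 replicate 2. The cytochromes CYP2C8, CYP2C19 and CYP2E1 were among the members without enough reads.

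Isozymes gave a direct comparison of liver-type and other forms of the same step. Of 14 liver-type genes, 10 were tested, 7 were higher in HepG2 and none was lower than in both lines, and of 15 other forms, 12 were tested, 2 were higher and 3 lower. Their median log2 differences were 6.60 and 5.17 for the liver-type forms, or 4.005 and 3.16 with the floor, and -0.17 and -0.09 for the others. MAT1A, the S-adenosylmethionine synthetase of adult liver, was at 116, 98 and 95.5 CPM in HepG2 with at most 6 counts in a kidney library, and MAT2A, the form of other tissues, was at 247 ± 17, 341 ± 22.0 and 245 ± 6.2 CPM. PKLR, the liver pyruvate kinase, was at 15 ± 0.786 CPM against 0.0156 in HKC-8 and 0 in RCC4, while PKM was at 1357 ± 49.8 CPM in HepG2, 3405 ± 331 in HKC-8 and 3355 ± 75.8 in RCC4. PKM was therefore lower in HepG2 by a similar amount against both lines (-1.33 ± 0.10 and -1.31 ± 0.06). Per kilobase of all annotated exons, HepG2 held 158 CPM of PKM and 4.74 CPM of PKLR, and the size of this gap depends on the annotated lengths.

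Glucose handling did not follow the liver-type pattern throughout. HK1 was at 3.38, 3.55 and 2.98 CPM in HepG2, 245 ± 17 in HKC-8 and 70.9 ± 1.81 in RCC4 (log2 differences -6.21 ± 0.11 and -4.42 ± 0.09), and HK2 was at 140.4 ± 18.6, 110.5 ± 30.0 and 57.0 ± 1.32 CPM. SLC2A2, the glucose carrier of hepatocytes, was at 61.1 ± 3.28, 0.0503 ± 0.0339 and 15 ± 1.21 CPM. The widely used carriers SLC2A1 and SLC2A3 were also higher in HepG2: SLC2A1 was at 1540, 1512 and 1647 CPM against 46.8 to 59.4 CPM in HKC-8 and 250 to 260 CPM in RCC4. SLC2A3 was at 381 ± 31.4 CPM in HepG2 and 18.8 ± 3.01 in HKC-8, with 1 count in the RCC4 libraries. ALDOA, a glycolytic aldolase, was at 1491 ± 16.0, 1359 ± 122 and 1702 ± 37.2 CPM and was called in neither comparison.

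The remaining isozymes were mixed. G6PC and KHK were among the higher members, and CPT1A, which admits fatty acids to mitochondria, was at 19.6 ± 1.22 CPM in HepG2, 21.7 ± 1.60 in HKC-8 and 1.83 ± 0.355 in RCC4. CPT1B, the muscle form, was at 8.37 ± 1.30, 20.3 ± 3.36 and 0.333 ± 0.148 CPM, so that both forms were lowest in RCC4. PYGL, liver glycogen phosphorylase, was at 88.5 ± 7.81 CPM in HepG2, 425 ± 23.3 in HKC-8 and 59.7 ± 2.57 in RCC4, against the name of its list. PYGB, the brain form, was at 221 ± 14.8, 209 ± 15.9 and 439 ± 8.89 CPM. GLS2 was at 11.7 ± 0.670, 1.38 ± 0.255 and 0.0946 ± 0.0652 CPM, and so was higher in HepG2 than in both lines. ACSM2A was at 1.28 ± 0.613 CPM in HepG2, 0 in HKC-8 and 5.22 ± 0.269 CPM in RCC4. FBP1 and GYS2 were not tested, and neither were PYGM, FBP2 and CPT1C, while ALDOC and GYS1 were not called the same way in both comparisons.

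**Figure D3:**
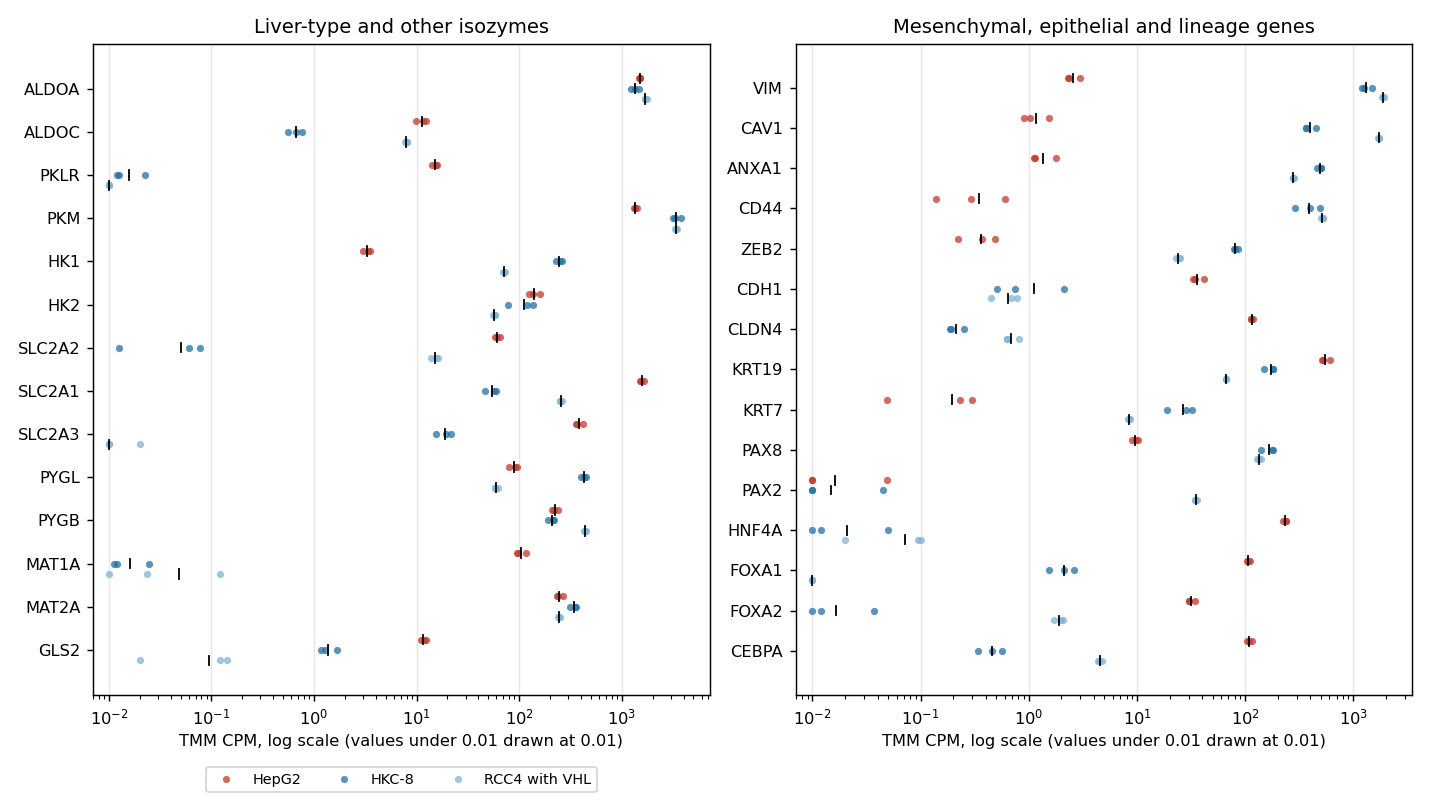
TMM-scaled CPM (log axis, values under 0.01 drawn at 0.01), with 1 point for each of the 9 samples and a black tick for each group mean, for liver-type and other isozymes (left) and for mesenchymal, epithelial and lineage factor genes (right). MAT1A and PKLR separate HepG2 from both kidney lines whereas ALDOA and MAT2A do not, and VIM lies at 2.54 CPM in HepG2 against 1317 and 1870 CPM.

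Genes of fetal liver and liver cancer were higher in HepG2 at 12 of 16 tested members. GPC3, a cell-surface proteoglycan used as a marker of hepatocellular carcinoma, was at 2742, 2652 and 2533 CPM in HepG2, with at most 5 counts in a kidney library. The imprinted genes IGF2, DLK1 and PEG3 were at 572 ± 57.2, 310.1 ± 6.39 and 539.8 ± 51.1 CPM, and DLK1 had no count in any kidney library, which puts it at least 4830-fold higher than in RCC4. IGF2BP1, an RNA-binding protein of fetal tissue, was at 486 ± 46.3, 1.32 ± 0.567 and 0.0484 ± 0.0293 CPM. LIN28B, a repressor of let-7 maturation, was at 236 ± 25.7 CPM in HepG2, 29.2 ± 3.60 in HKC-8 and 0 in RCC4. H19, which lies beside IGF2, was at 0.174 ± 0.0889 CPM and was not tested. SALL4 was at 0.321 ± 0.0501 CPM in HepG2, 2.15 ± 0.825 in HKC-8 and 0 in RCC4, and so was called on opposite sides.

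Kidney lineage factors did not form a block that was lower in HepG2. Of 24 factors, 20 were tested, 2 were higher and 4 lower in HepG2 than in both lines, where the backgrounds were 16.5% and 10.9%. PAX8, a regulator of the renal epithelium, was among the lower factors, at 10.2, 9.03 and 9.72 CPM in HepG2, 139 to 182 CPM in HKC-8 and 129 to 140 CPM in RCC4 (log2 differences -4.10 ± 0.12 and -3.80 ± 0.07). PAX2, by contrast, was near 0 in both HepG2 and HKC-8 and at 35.1 ± 0.669 CPM in RCC4. SIX2, of nephron progenitors, was at 0.0479 ± 0.0489, 11.6 ± 1.07 and 4.79 ± 0.499 CPM, and FOXD1, of the renal stroma, was at 0.277 ± 0.166, 32.6 ± 5.09 and 16.5 ± 1.20 CPM. WT1 and OSR1 were higher in HepG2, at 0.451 ± 0.203 and 4.43 ± 0.365 CPM, where WT1 was close to the floor of the kidney libraries. SALL1, named after its values were seen, was at 38.1 ± 1.88 CPM in HepG2 and 34.0 ± 0.885 in RCC4 with no count in HKC-8.

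The defining markers of the kidney lines were present only in part. EMX2 had at most 1 count in any kidney library, SLC22A6 had none in the 9 samples, and CUBN, SLC34A1 and AQP1 were at 0.0483, 0.0201 and 0.0501 CPM in HKC-8. In RCC4, AQP1 was at 3.99 ± 0.457 CPM, LRP2 at 0.680 ± 0.0141 CPM and CUBN at 0.0203 CPM. Neither kidney line thus carried the full set of proximal tubule markers, and HKC-8 carried PAX8 with at most 6 counts of PAX2 or LHX1 in a library. Liver markers were present in HepG2, as given above for ALB, APOA1, APOB, SERPINA1, TTR, FGA, FGB and HNF4A. Of 11 blood and endothelial markers, 3 had enough reads to be tested. PECAM1 was at 1.40 ± 0.205 CPM in HepG2 with no count in the kidney lines. It is among the genes left out of the alternative fit described near the end. Outside those genes, 2 members were tested and 0 were higher in HepG2 than in both lines. The part of read placement in the PECAM1 values was not tested. CDH5 was at 0.388 ± 0.221, 1.86 ± 0.275 and 0 CPM and CD14 at 1.51 ± 0.174, 2.46 ± 0.292 and 0.0304 ± 0.0367 CPM in HepG2, HKC-8 and RCC4, both named after their values were seen. PTPRC and KDR, of leukocytes and endothelium, had at most 2 counts in any of the 9 libraries, and mesenchymal genes are given further on.

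Of 33 proximal tubule genes, 25 were tested, and 9 were higher and 3 lower in HepG2 than in both kidney lines. ANPEP, a brush border peptidase that also lines bile canaliculi, was at 275, 266 and 269.8 CPM in HepG2, 1.85, 2.43 and 4.27 CPM in HKC-8 and 0.332 to 0.609 CPM in RCC4, so the liver line was far above both kidney lines for this marker (log2 differences 6.56 ± 0.24 and 9.04 ± 0.11). GPX3, a plasma peroxidase made by the tubule, was at 126 ± 10.2, 13.4 ± 1.04 and 0.748 ± 0.175 CPM. SLC47A1, an exporter of organic cations, was at 68.9 ± 2.39 CPM and DPEP1 at 41 ± 2.57 CPM, with at most 4 counts of either in a kidney library. The lower members were HAVCR1, MME and ENPEP. HAVCR1, a marker of tubule injury, was at 1.29 ± 0.153, 20.1 ± 4.52 and 266 ± 11.7 CPM. MME and ENPEP had no count in HepG2 and only 9 to 30 and 3 to 6 counts in the HKC-8 libraries.

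The next tubule genes were higher in RCC4 than in HepG2 and are named after their values were seen. CDH6 was at 235 ± 7.01 CPM in RCC4, against 0.0464 in HepG2 and 0.0555 in HKC-8, and CDH16 was at 233 ± 0.806 against 3.17 ± 1.28 and 3.25 ± 1.59 CPM. SLC22A2, an importer of organic cations, was at 54.3 ± 1.20 CPM in RCC4 with no count in HepG2. GGT1, a brush border enzyme, was at 30.6 ± 1.71 CPM in HepG2, 0.244 ± 0.0963 in HKC-8 and 169 ± 5.90 in RCC4, and SLC4A4, the basolateral bicarbonate carrier, was at 0.182 ± 0.0977, 0.0528 ± 0.0361 and 125 ± 5.67 CPM, so HepG2 lay between the kidney lines for both. Over the tested list, 14 genes were higher and 3 lower than in HKC-8, and 9 were higher and 14 lower than in RCC4, with medians of 1.77 and -2.47 on the log2 scale. Of the 17 genes of other nephron segments, 5 were tested: AQP3 and SCNN1A were higher, and SLC12A3, PODXL and SYNPO were lower, of which SYNPO was under 2-fold against HKC-8 (-0.90) without HKC-8 replicate 3.

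Most HOX genes were lower in HepG2. Of 39 genes, 35 were tested, 21 were lower than in both kidney lines and 1 was higher, with median log2 differences of -6.90 against HKC-8 and -4.64 against RCC4, or -5.45 and -3.80 with the floor. HOXA9 (chromosome 7, 27202057 to 27214799, minus strand) was at 0.0464, 0.0922 and 0.0977 CPM in HepG2, 39.7 to 41.9 CPM in HKC-8 and 39.1 to 42.7 CPM in RCC4, the same level in both kidney lines within their spread. HOXB9 had no count in HepG2 and was at 13.8 ± 0.909 and 13.7 ± 0.285 CPM. HOXC10 was at 0.128 ± 0.150, 60.3 ± 2.20 and 24.5 ± 1.13 CPM, and HOXB7 at 0.0480 ± 0.0489, 4.63 ± 0.817 and 36.8 ± 0.526 CPM, so HKC-8 was the higher kidney line for HOXC10 and RCC4 for HOXB7. By cluster, 4 of 11 tested HOXA genes, 7 of 9 HOXB, 6 of 8 HOXC and 4 of 7 HOXD genes were lower than in both lines. The exception was HOXD1, at 18.9, 17.1 and 14.2 CPM in HepG2 against 0.569 ± 0.217 and 0.0799 ± 0.0692 CPM (log2 differences 4.86 ± 0.24 and 7.69 ± 0.29). HOXA3, named after its values were seen, was also read in HepG2, at 11.3 ± 0.735 CPM against 7.47 ± 0.372 and 23.9 ± 1.55.

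**Figure D4:**
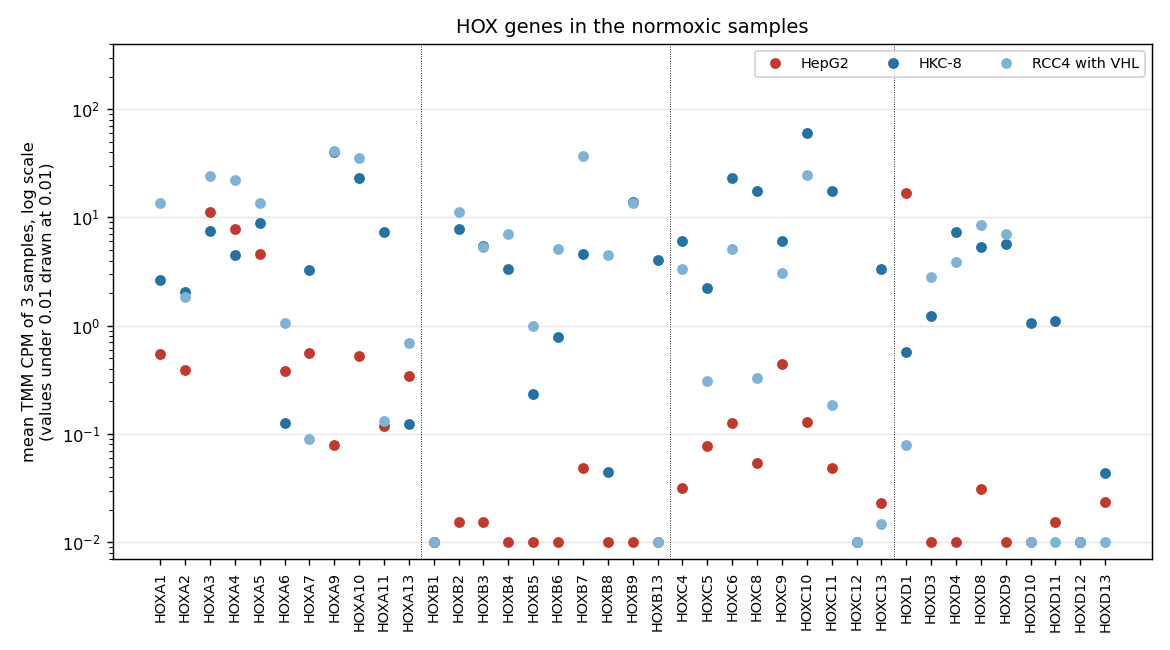
Mean TMM-scaled CPM (log axis, n = 3) of each HOX gene in the 3 lines, in order along the A, B, C and D clusters, which dotted lines separate. HepG2 was called lower than both kidney lines at 21 genes and higher than both at HOXD1, which was at 16.7 CPM.

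Mesenchymal and matrix genes were lower in HepG2 at 18 of 33 tested members and higher at 4, with median log2 differences of -2.76 and -2.16. VIM, the intermediate filament vimentin, was at 2.97, 2.33 and 2.32 CPM in HepG2, 1213 to 1484 CPM in HKC-8 and 1823 to 1916 CPM in RCC4, a gap without overlap (log2 differences -9.02 ± 0.16 and -9.52 ± 0.10). CD44, a hyaluronan receptor and one of the 12 genes lowest in HepG2, was at 0.603, 0.138 and 0.293 CPM in HepG2, 289 to 493 CPM in HKC-8 and 498 to 529 CPM in RCC4. CAV1, the coat protein of caveolae, was at 1.16 ± 0.347, 395 ± 47.9 and 1711 ± 6.21 CPM, and ANXA1 at 1.35 ± 0.380, 488 ± 21.4 and 279 ± 3.47 CPM. ZEB2, a repressor of E-cadherin, was at 0.358 ± 0.133, 81.4 ± 3.86 and 24.0 ± 1.12 CPM. ZEB1, its relative, named after its values were seen, did not follow it and was at 27.7 ± 2.69, 10.2 ± 0.306 and 14.3 ± 2.41 CPM.

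Members of the same list that were higher in HepG2 were FN1, S100A4, COL5A2 and ACTA2. FN1, a plasma protein of hepatocytes as well as a matrix protein, was at 11930, 10886 and 13308 CPM in HepG2, 5174, 6973 and 4653 CPM in HKC-8 and 479 to 513 CPM in RCC4. Its difference was 4.61 ± 0.08 against RCC4 but only 1.10 ± 0.15 against HKC-8, and 0.99 without HKC-8 replicate 3. ACTA2 was at 48.4 ± 2.48, 2.24 ± 0.959 and 23.3 ± 0.634 CPM, and S100A4 and COL5A2 were at 14.8 ± 3.62 and 2.58 ± 0.737 CPM in HepG2. TNC, named after its values were seen, was at 0.711 ± 0.132 CPM in HepG2, 198, 268 and 102 CPM in HKC-8 and 0.0835 ± 0.0926 in RCC4.

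Epithelial junction and keratin genes were higher in HepG2 at 7 of 17 tested members and lower at 2. CDH1, or E-cadherin, was at 41.3, 34.6 and 32.6 CPM in HepG2, 0.738, 0.510 and 2.12 CPM in HKC-8 and 0.447 to 0.783 CPM in RCC4 (log2 differences 4.99 ± 0.37 and 5.83 ± 0.16). CLDN4, a tight junction claudin, was at 115 ± 3.35, 0.210 ± 0.0381 and 0.687 ± 0.103 CPM. The desmosomal DSP was at 477 ± 56.8, 4.38 ± 0.648 and 187 ± 5.25 CPM, and the adhesion molecule EPCAM at 164 ± 3.83, 30.7 ± 1.41 and 70.1 ± 3.83 CPM. The keratins split: KRT19 was at 549 ± 50.7, 172 ± 18.2 and 66.7 ± 0.498 CPM, KRT7 was at 0.194 ± 0.130, 26.6 ± 6.93 and 8.47 ± 0.153 CPM, and KRT18, named after its values were seen, was at 929 ± 56.8, 1147 ± 87.6 and 811 ± 10.2 CPM. CGN was the other lower member, at 4.15 ± 0.149, 12.8 ± 0.937 and 23.1 ± 2.30 CPM. CLDN2 lay between the kidney lines, at 4.58 ± 0.615 CPM in HepG2, 0.0601 ± 0.0257 in HKC-8 and 1244 ± 7.81 in RCC4. The bile duct list was also divided, with 4 members higher (KRT19, SOX9, EPCAM and CLDN4) and 2 lower, KRT7 among them, of 7 tested, and SOX9 at 186 ± 19.7, 5.25 ± 0.512 and 19.6 ± 0.910 CPM.

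Among 17 tested integrins, 4 were higher and 5 lower in HepG2 than in both lines, where the backgrounds were 16.5% and 10.9%. ITGA2, a collagen receptor subunit, was at 185, 206 and 294 CPM in HepG2, 2.70 ± 0.524 in HKC-8 and 9.53 ± 1.67 in RCC4, and ITGA6 and ITGB4, which pair as a laminin receptor, were at 251 ± 37.4 and 14.0 ± 1.08 CPM in HepG2 and higher there than in both lines. ITGA10 was at 12.6 ± 1.41 CPM against 0.957 ± 0.282 and 0.0925 ± 0.127. The lower subunits included ITGA3, at 6.79 ± 0.535, 170.2 ± 28.0 and 929 ± 48.1 CPM, and ITGA5, the fibronectin receptor subunit, at 2.56 ± 0.178, 137 ± 8.86 and 58.2 ± 3.31 CPM. ITGB3 was at 1.26 ± 0.317, 25.7 ± 3.25 and 469 ± 8.63 CPM and ITGB8 at 0.371 ± 0.164, 42.4 ± 4.24 and 146 ± 9.10 CPM. ITGB6 had no count in HepG2, 9 to 15 counts in the HKC-8 libraries and 41.6 ± 1.15 CPM in RCC4.

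The other genes of the 12 lowest in HepG2 included SLC43A3, EPB41L3, ATL3, GALNT14, HTATIP2 and ME1. SLC43A3, a nucleobase transporter, was at 0.278, 0.161 and 0.0977 CPM in HepG2, 172 to 252 CPM in HKC-8 and 223 to 230.5 CPM in RCC4. ATL3, which shapes the endoplasmic reticulum, was at 0.124 ± 0.0956 CPM in HepG2 and at 109 ± 0.550 and 120.1 ± 2.92 CPM in the kidney lines. Both genes stood at similar levels in the kidney lines and near the floor in HepG2. ME1, the cytosolic malic enzyme, was at 0.152 ± 0.123, 101 ± 4.16 and 115 ± 4.33 CPM, and HTATIP2 at 0.139 ± 0.121, 97.0 ± 3.37 and 157 ± 7.57 CPM. EPB41L3, a membrane skeleton protein, was at 0.0940 ± 0.106, 195 ± 19.2 and 88.9 ± 6.15 CPM, and GALNT14, a mucin-type glycosyltransferase, at 0.0617 ± 0.0583, 50.8 ± 2.94 and 120.4 ± 1.24 CPM. LDOC1L and CECR5 were at 0.110 and 0.0633 CPM in HepG2, and ANXA2P2, a processed pseudogene of ANXA2, was at 0.0466 CPM against 143 ± 14.6 and 55.3 ± 1.67 CPM. Fragments that did not align uniquely were dropped, and the part of read placement in the ANXA2P2 values was not tested. RNA45S5, the ribosomal RNA precursor, and LOC389831 had no count in HepG2 and 446 to 1315 and 63.8 to 75.1 CPM in HKC-8. Whether each line's reads were counted against the same annotation is not given in the sources used here, and its part in these zeros was not tested.

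The HIF pathway in normoxia was compared member by member. Of 11 tested members, none was higher in HepG2 than in both lines and 1, CITED2, was lower, where the backgrounds were 16.5% and 10.9%. It was at 19.6 ± 1.73, 93.7 ± 1.77 and 299.5 ± 6.83 CPM (log2 differences -2.26 ± 0.09 and -3.93 ± 0.07). CITED2 competes with HIF-α for the coactivators CBP and p300. HIF1A was at 306, 299.6 and 380 CPM in HepG2, 345 to 388 CPM in HKC-8 and 364 to 378 CPM in RCC4, overlapping in both comparisons. EPAS1, which encodes HIF-2α, was at 231, 231 and 269 CPM in HepG2, 68.1 to 80.9 CPM in HKC-8 and 245 to 260 CPM in RCC4, so it was higher than in HKC-8 (1.73 ± 0.10) and not separated from RCC4 (-0.06 ± 0.07). VHL was at 83.3 ± 9.01, 86.3 ± 5.98 and 66.4 ± 0.870 CPM, where RCC4 carries an introduced copy, and ARNT, the β subunit, was at 39.8 ± 3.80, 60.2 ± 5.71 and 45.7 ± 1.86 CPM.

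Among the oxygen-sensing hydroxylases, EGLN1 was at 83.8, 74.8 and 104 CPM in HepG2, 114 ± 3.73 in HKC-8 and 181 ± 5.01 in RCC4, and was lower than RCC4 (-1.05 ± 0.09, and under 2-fold at -0.94 without HepG2 replicate 2). EGLN2 was at 36.8 ± 1.80, 23.6 ± 2.94 and 69.2 ± 2.63 CPM, EGLN3 at 0.925 ± 0.512, 1.76 ± 0.320 and 0.0135 ± 0.0117 CPM, and the asparaginyl hydroxylase HIF1AN at 87.8 ± 5.12, 101 ± 5.52 and 72.7 ± 1.94 CPM. ARNT2 was at 5.62 ± 0.745, 2.56 ± 0.423 and 3.12 ± 0.648 CPM, called higher than in HKC-8 and, without RCC4 replicate 2, than in RCC4 (1.03). HIF3A had too few reads to be tested, and ARNTL was called in neither direction in both lines. None of these levels speaks to protein, which VHL and the hydroxylases control.

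Genes that hypoxia is known to induce were not set alike in normoxia. Of 21 tested, SLC2A1, SLC2A3 and EPO were higher in HepG2 than in both lines and PFKFB3 was lower, where the backgrounds were 16.5% and 10.9%. EPO, the red cell hormone, was at 4.33, 5.72 and 4.72 CPM in HepG2, with 1 count in HKC-8 and none in RCC4. PFKFB3, which makes the activator of phosphofructokinase, was at 13.4 ± 1.18, 84.8 ± 13.9 and 224 ± 6.24 CPM. The carbonic anhydrases CA9 and CA12, named after their values were seen, were at 0.553 ± 0.180 and 1.32 ± 0.440 CPM in HepG2, at 5.40 ± 1.22 and 60.3 ± 7.02 CPM in HKC-8 and at or near 0 in RCC4, and PFKFB4 was at 9.60 ± 0.134, 20.9 ± 2.58 and 3.66 ± 0.464 CPM. VEGFA was at 73.0 ± 4.91, 37.7 ± 1.42 and 29.6 ± 0.865 CPM, which reached 2-fold against RCC4 only.

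Factors of the AP-1 and TEAD families and their targets gave 3 higher and 4 lower of 18 tested, where the backgrounds were 16.5% and 10.9%. TEAD1 was at 87.6 ± 9.40, 398 ± 15.2 and 283 ± 5.15 CPM and TEAD3 at 53.9 ± 0.653, 15.6 ± 0.640 and 18.5 ± 0.497 CPM, opposite in direction. The target genes were divided too: CYR61 was at 28.2 ± 4.99, 403 ± 86.4 and 642 ± 6.28 CPM and AMOTL2 at 27.9 ± 1.73, 161 ± 17.8 and 144 ± 7.22 CPM, both lower in HepG2. CTGF was at 303 ± 19.3, 149 ± 46.1 and 87.8 ± 1.10 CPM and ANKRD1 at 154 ± 23.3, 9.12 ± 2.84 and 44.3 ± 2.56 CPM, both higher. FOSL2 was at 21.1 ± 0.523, 59.8 ± 5.52 and 82.3 ± 3.72 CPM. Of 12 tested factors whose motifs the study tabulated, FOXL1 alone was called in both comparisons, with no count in HepG2 and 3, 4 and 7 counts in the HKC-8 libraries, and this call was lost with DESeq2 and with the replicate block. The other factors of that list, ARNT, HEY1, ZNF263, JUN, JUNB, JUND, FOS, SP1, SP2 and FOXD2, were not called the same way in both comparisons, HEY2 was called on opposite sides and FOXC2 was not tested.

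Genes of antigen presentation and the interferon response fell into opposite groups within 1 list of 23. HLA-B and HLA-C, heavy chains of classical MHC class I, were lower in HepG2: HLA-C was at 7.25, 7.51 and 5.77 CPM in HepG2, 49.5 to 67.1 CPM in HKC-8 and 63.5 to 66.2 CPM in RCC4 (log2 differences -3.04 ± 0.15 and -3.24 ± 0.09). HLA-E, TAP1, TAP2, PSMB8 and PSMB9, which lie in the same stretch of chromosome 6, were higher: HLA-E was at 17.4, 16.8 and 16.9 CPM against 0.123 to 0.327 and 0 to 0.264 CPM. The sensors and effectors IFI16, IFIT1, IFIT2 and IFIT3 and the class I transactivator NLRC5 were lower, with IFI16 at 0.228 ± 0.0827, 46.3 ± 5.86 and 29.7 ± 1.25 CPM, and OAS2 was higher at 0.630 ± 0.111 CPM. B2M, the light chain, was called in neither comparison, at 376 ± 25.7, 456 ± 26.8 and 525 ± 20 CPM. Outside the region described next, 1 of 15 tested members was higher and 5 were lower.

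Counts in the stretch of chromosome 6 that holds the MHC were divided by cell line across genes of unrelated function. Of 99 tested genes there, 78 were higher and 6 lower in HepG2 than in both kidney lines, 16 had no count in any of the 6 kidney libraries, and 11 had at least 10 CPM in HepG2 with at most 3 counts in every kidney library. CLIC1, a widely used chloride channel gene (31698358 to 31707540), was at 227, 246 and 248 CPM in HepG2 and at 0 in all kidney libraries. RPS18, which encodes a protein of every ribosome, was at 1223, 1492 and 972 CPM in HepG2, 29.2 ± 1.77 in HKC-8 and 19.5 ± 6.44 in RCC4, and FLOT1 was at 52.2 ± 1.36 CPM with 2 counts in each HKC-8 library. The summed level of the tested genes was 3802 to 4306 CPM in HepG2, 409 to 486 CPM in HKC-8 and 251 to 264 CPM in RCC4. In the hypoxic samples it was 3816 to 3929, 430.3 to 483 and 297 to 358 CPM, so HepG2 was above both kidney lines there too. The part of oxygen in these values was not tested. Whether the reads of each line were aligned to the same set of sequences is not given in the sources used here, and its part in these values was not tested. Genes of this window are therefore given with that limit. An alternative fit left out this window, the pseudoautosomal regions, the MTRNR2L genes and windows at 4q13 and 17q21. It also left out 271 tested pseudogenes and 567 tested genes with no place in the annotation, whether or not their counts divided by line. In that fit, 2152 genes were higher and 1462 lower than in both kidney lines.

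**Figure D5:**
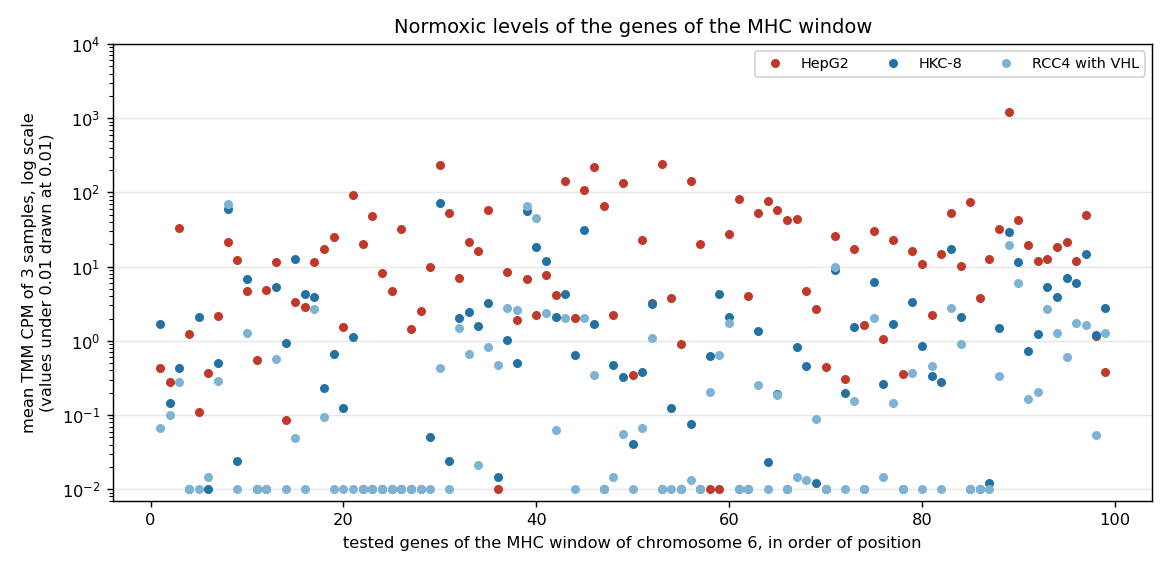
Mean TMM-scaled CPM (log axis, n = 3) in each line of the 99 tested genes in the MHC stretch of chromosome 6, in order of position. HepG2 was called higher than both kidney lines at 78 of these genes and lower at 6, HLA-B and HLA-C among the latter.

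Genes that most cells use gave a check on scale. Of 16, none was higher than in both lines and 1, HPRT1, was lower, at 50.3 ± 2.41, 139 ± 4.14 and 116 ± 3.15 CPM. GAPDH, of glycolysis, was at 2761 ± 68.3, 5471 ± 563 and 5740.0 ± 133 CPM, and ACTB at 2931 ± 90.9, 5607 ± 1201 and 8131 ± 254 CPM, so these common reference genes would not have placed the lines at one level. The list had a median of -0.40 against each kidney line. In all, the lists held 440 tested genes, of which 192 were higher, 77 lower and 23 called on opposite sides.

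The same contrast was then made in hypoxic samples, which had not been used to choose the genes. They are of the same cell lines, and the line and its batch cannot be told apart there either. A gene called again thus shows that its difference was also present in hypoxia, and is not an independent test of the lines. Hypoxic HepG2 and HKC-8 cells had 0.5% oxygen for 16 hours by the sample characteristics, although the HKC-8 sample titles give 0.1%. In hypoxia, 3729 genes (25.2%) were higher and 3129 (21.1%) lower in HepG2 than in HKC-8. Of the 3889 genes higher in normoxia, 3435 (88.3%) were higher again and 4 were lower, and of the 3062 lower genes, 2701 (88.2%) were lower again and 3 were higher. Among genes called against both kidney lines, 2268 of 2437 (93.1%) and 1495 of 1610 (92.9%) were called again. ALB was at 9574 CPM or more in each hypoxic HepG2 sample with at most 0.0306 CPM in hypoxic HKC-8, HNF4A at 241 to 248 CPM, and VIM at 1.84 to 3.06 CPM against 1568 to 1745 CPM. For hypoxic RCC4 the labels give 1% oxygen for 24 hours, so no test was made. Of the 2437 higher genes, 2411 had no overlap between hypoxic HepG2 and hypoxic RCC4 samples in the same direction, as had 1562 of the 1610 lower genes. These genes had been chosen for a difference between the same lines, and the share over all tested genes is not given here.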

How the data were processed

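Read counts per gene were the only deposited values used. As stated by the study's methods and the labels' processing notes, the authors trimmed reads with Trim Galore 0.3.3, aligned them to GRCh37 with TopHat2 2.0.8b and Bowtie 1.0.0, dropped non-uniquely aligned fragments with SAMtools 0.1.19 and deposited whole-number counts per UCSC gene from HTSeq 0.5.4p3. The strand setting of the counting is not given in the sources used here, so overlapping and antisense genes are uncertain, as are genes with near-identical copies, whose multiply mapped fragments were removed. Each HKC-8 library was labelled as split over 2 sequencing lanes, and its deposited counts were used as 1 sample.

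The 9 normoxic samples shared a filter on low counts (filterByExpr), which kept 14806 of 23106 genes, and TMM scaling. HepG2 was tested against each kidney line in a fit of its own with edgeR 4.0.16 (quasi-likelihood, R 4.3.3), with Benjamini-Hochberg adjustment over all tested genes. A gene was called at an adjusted p-value under 0.05 and at least 2-fold. A standard error is the log2 change divided by the root of its F statistic. Folds against few reads raised each group mean to a floor of 3 counts per library. Levels per kilobase used the joined length of all exons of a gene in GENCODE v44lift37, not the length of the transcripts expressed. Of the tested genes, 13230 matched that annotation by symbol, 1009 by a RefSeq synonym and 567 not at all. The steps were run on simulated counts in which a small set of genes changed by 4-fold, in equal number up and down. Of these, 96.9% of 196 tested were recovered for HKC-8 among 14245 tested genes, and 97.9% of 192 for RCC4 among 14064. Changes near 2-fold, and as many changed genes as were called in these data, were not simulated, so the recovery does not cover them.

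The genes named were the 12 with the largest and the 12 with the smallest fold among genes called in both comparisons with at least 10 CPM in every sample of the higher side, the 10 with the most reads in HepG2, up to 6 members of each list called in both comparisons, members called against a list's name, and all members of the HIF pathway, isozyme and motif factor lists; some genes that meet these rules are not reported here, and others are said to be named after their values were seen. The members and the 26 lists were chosen with earlier results of these data known. Alternatives were DESeq2 1.42.0, other scaling, filters, thresholds and joint fits, thinned counts, a replicate block and leaving out each replicate. Same-numbered HepG2 and kidney samples deviated together with correlations of -0.0206 to 0.00444, so the numbers did not pair the samples. RefSeq promoters matched under 80% of the called genes, so motif shares were not compared between gene sets.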

Additional observations from a re-analysis of the deposited data

Results flagged for a closer look

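For the 22 listed genes below, HepG2 was called higher than 1 kidney line and lower than the other, and the kidney lines themselves differed in edgeR's quasi-likelihood test. The values here are log2 differences of RCC4 minus HKC-8, with HepG2 between them. They were positive, with RCC4 the higher kidney line, for HNF4G (11.02), CEBPD (5.005), LHX1 (5.13), EMX1 (9.86), HOXA6 (3.04), C1R (3.51), BAAT (6.51), ACSM2A (11.42), SLC4A4 (11.20), LRP2 (8.48), GGT1 (9.42), CLDN2 (14.31) and HEY2 (9.88). They were negative, with HKC-8 the higher kidney line, for HOXA7 (-5.13), CPT1B (-5.90), SALL4 (-10.14), COL3A1 (-10.13), TNC (-11.21), CA9 (-11.47), CA12 (-12.71), PFKFB4 (-2.51) and CDH5 (-9.93). Where a line had few or no counts of a gene, the size of its difference rests on the prior count of the fit.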

How the results depend on the processing

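With adjusted p alone and no fold minimum, 6130 genes were higher and 5824 lower than in HKC-8, 6859 and 5800 than in RCC4, and 4169 and 3296 than in both. With at least 4-fold, the counts were 2424 and 1680, 2629 and 1901, and 1595 and 1058. When the hypoxic comparison had to reach 4-fold, an alternative chosen after seeing the data, 2307 of the 3889 genes higher than in HKC-8 (59.3%) and 1652 of the 3062 lower (54.0%) were called again. The 10 genes with the most reads held 8.26% of HepG2 reads on the TMM effective library size. In 250 bases before the start, 2.98% of promoters held the FOXA letters, 4.16% AP-1, 2.95% TEAD and 11.1% TATA. These shifts follow from the thresholds, denominator and window themselves.

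With the replicate number as a block, although it did not pair the samples, 3860 genes were higher and 3011 lower than in HKC-8, 4098 and 3164 than in RCC4, and 2419 and 1568 than in both. Higher and lower genes against both lines numbered 2374 and 1568 with DESeq2, 2419 and 1621 with median-of-ratios scaling, 2875 and 1721 with no filter, 1855 and 1489 with at least 1 CPM in 3 samples, 2114 and 1351 with glmTreat, and 2399 to 2442 and 1548 to 1622 when 1 replicate was left out. Of 6888 values of 182 named genes under the alternatives, 17 fell below and 17 rose above the threshold, in 12 genes, and 0 changed direction. Where a line has few or no counts of a gene, depth limits how large a fold can be shown.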

Other observations

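Several stretches of 1000000 bases, named after their values were seen, held many genes called in 1 direction. They were picked from the stretches with the most called genes, so high counts follow from that choice. Genes left out of the alternative fit above were left out here too. Of the remaining tested genes, 15.4% were higher and 10.7% lower in HepG2 than in both kidney lines. At 24000001 to 25000000 of chromosome 14 (GRCh37), 19 of 37 tested genes were higher in HepG2 than in both kidney lines and 0 lower, among them PCK2, a mitochondrial gluconeogenic enzyme, and PSME2, a proteasome activator subunit. Further along chromosome 14, at 94000001 to 95000000, 9 of 14 were higher, with SERPINA1, SERPINA6, SERPINA10, SERPINA11 and SERPINA12 of the serpin cluster. The protocadherin clusters at 140000001 to 141000000 of chromosome 5 had 13 of 31 higher and 2 lower, PCDHGB5 and PCDHGC3. The stretch of chromosome 12 with the HOXC cluster (54000001 to 55000000) had 12 of 20 lower, HOTAIR and ITGA5 included.

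By class, 13 of 22 tested snoRNA genes were higher in HepG2 than in both kidney lines and 0 lower, against 2149 and 1469 of 13740 protein-coding genes and 53 and 29 of 193 lncRNA genes. Of 9 tested genes in the first pseudoautosomal region, 8 were lower and 8 had no count in HepG2; the lower gene with a read there was PLCXD1, with 1 count in 1 library, and AKAP17A had none in HepG2 but was not called. MTRNR2L2 was at 1084 CPM in HepG2, 0.0276 in HKC-8 and 0.123 in RCC4, and MTRNR2L8 at 540.5, 0.174 and 0.399 CPM. These genes resemble mitochondrial RNA sequences, and the part of read placement in these values was not tested.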
